A study of Mus musculus with 6 samples.

Results

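The interferon response and nucleic acid sensing genes described here are 32 genes, picked by symbol from the 23284 rows of each count table: receptors, STAT and IRF factors, cytosolic RNA sensors and interferon-stimulated genes. All 32 symbols were found, and 31 had enough counts to be tested. RNA was sequenced from MIN6 cells, an insulin-secreting mouse tumour line that serves as a stand-in for pancreatic beta cells. Per the labels, 3 libraries came from cells treated with an antisense oligonucleotide (ASO) against the long noncoding RNA Paupar (Paupar KD). The other 3 came from cells given a control ASO (control KD), so an oligonucleotide was present in both groups. The ASO differed between the groups, so its own effect cannot be told apart from that of Paupar loss in this design. MIN6 is 1 tumour line, the labels give no ASO dose or time, and they do not say whether replicates were separate cultures, so p-values cover only the spread between these libraries.

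Type I interferons are secreted proteins that cells make after detecting foreign or misplaced nucleic acid. RNA sensors of the RIG-I family signal through the mitochondrial adaptor MAVS to the factors IRF3 and IRF7, which switch on interferon genes. Interferon binds the receptor IFNAR, whose chains carry the kinases JAK1 and TYK2; these act on STAT proteins, and STAT2 with IRF9 binds interferon-stimulated response elements (ISREs) in the promoters of antiviral genes. In pancreatic islets this response is known from viral infection and from autoimmune diabetes.

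Libraries held 16973622 to 23434166 counts in Paupar KD and 22463557 to 28693863 counts in control KD. No row carries the name Paupar, so the knockdown was not measured here. Paupar KD libraries varied more than controls: over 13039 tested genes the median SD of log2 CPM (counts scaled to a common library total) was 0.204 in Paupar KD and 0.0762 in control KD, and Paupar KD replicate 1 was the highest of the 6 libraries for 33.2% of genes and the lowest for 32.6%. All 8 beta cell markers were tested and summed to 37718 to 55710 CPM in Paupar KD and 32083 to 36281 CPM in control KD, with the highest sum in Paupar KD replicate 1. Ins1, Ins2 and Iapp made up most of that sum; Slc30a8, a zinc transporter gene of the same list, averaged 387 ± 35.9 CPM in Paupar KD and 472 ± 13.0 CPM in control KD, and Slc2a2, a glucose transporter gene, 263 ± 45.5 CPM in Paupar KD and 317 ± 6.06 CPM in control KD. The 11 immune markers, of which 3 were tested, summed to 2.12 to 2.66 CPM in Paupar KD and 3.85 to 4.33 CPM in control KD, and Ptprc, the pan-leukocyte gene, was at 0 counts in every library. The sums of 4 endothelial and of 5 mesenchymal markers were at most 1.36 CPM in Paupar KD and 1.08 CPM in control KD.

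No gene of the interferon response passed the test in Paupar KD (edgeR's quasi-likelihood test, adjusted p under 0.05 over all genes, a threshold passed by 0.046% of the 13039 genes). Antiviral genes did not lie on one side. Mx1 and Usp18 were at lower values in all 3 Paupar KD libraries than in any control, and Oasl2, Isg20, Ifit1, Mavs and Tyk2 at higher values. The lowest Paupar KD value was close to the highest control KD value for Oasl2 (4.25 beside 4.15 CPM) and for Tyk2 (41.0 beside 40.8 CPM). For the receptor genes Ifnar1 and Ifnar2 and for Eif2ak2, Adar and Rsad2, the Paupar KD mean was 0.973 to 1.02 of the control KD mean.

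At an unadjusted p under 0.05, 5 members were higher and 2 lower in Paupar KD, 22.6% of the 31 tested, beside 17.7% of all genes (9.63% higher and 8.11% lower). Groups did not overlap for 5 members that were higher and 2 that were lower, again 22.6%, beside 27.1% of all genes (13.7% higher and 13.3% lower). The members' shares were thus near those of all genes. Log2 fold changes were positive for 20 members and negative for 11, a share of 64.5% positive beside 51.0% of all genes. Their median was 0.07, beside 0.01 over all genes, with a middle 50% from -0.08 to 0.30 for members and from -0.16 to 0.17 for all genes.

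**Figure D1:**
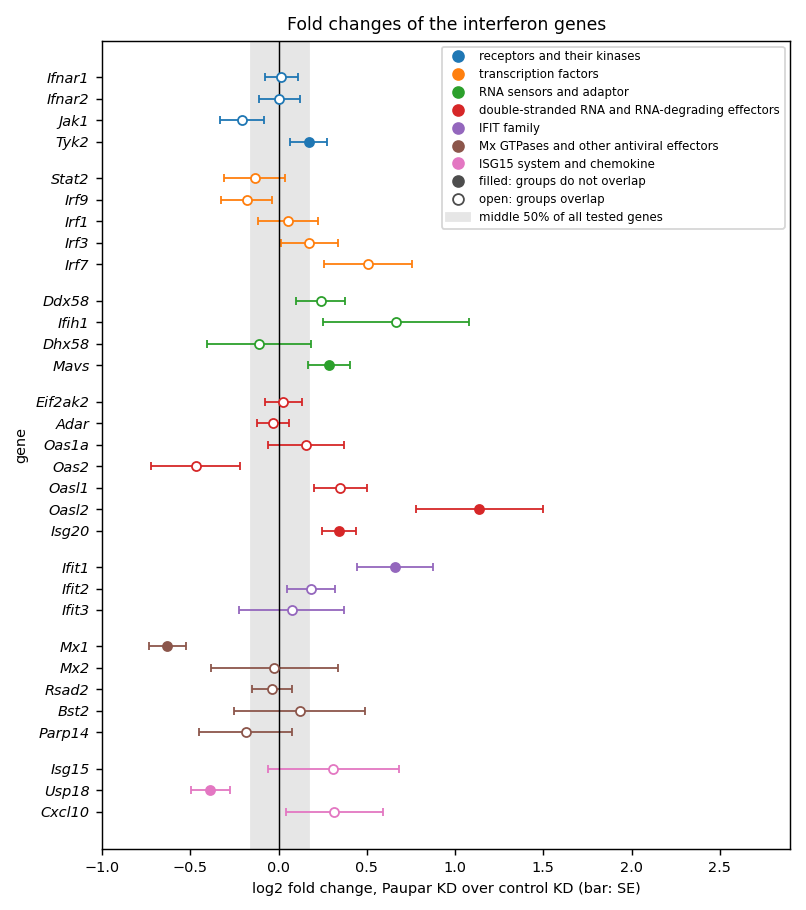
Log2 fold change of each of the 31 tested genes, Paupar KD over control KD, with its standard error, by role. Filled points mark genes whose 3 Paupar KD values lay apart from the 3 control KD values, and the grey band holds the middle 50% of all 13039 tested genes; Oasl2 lies farthest right at 1.14 and Mx1 farthest left at -0.63.

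The receptor genes were well expressed. Ifnar1, which encodes one chain of the type I interferon receptor, averaged 127 ± 10.4 CPM in Paupar KD and 125 ± 5.28 CPM in control KD (SD, n = 3 each, here and below). Ifnar2, the other chain, averaged 41.5 ± 5.22 CPM in Paupar KD and 41.5 ± 3.41 CPM in control KD. Jak1, a kinase bound to the receptor, averaged 214 ± 34.6 CPM in Paupar KD and 247 ± 9.74 CPM in control KD (edgeR adjusted p = 0.398). Its level in Paupar KD replicate 1, 175 CPM, was below the 5 other libraries at 226 to 258 CPM. Tyk2, the partner kinase, was at 46.4, 42.7 and 41.0 CPM in Paupar KD replicates 1, 2 and 3, against 40.8, 34.1 and 40.8 CPM in control KD replicates 1, 2 and 3. The Tyk2 groups were apart by a narrow margin, and the difference did not pass (log2 fold change 0.17 ± 0.11 SE, edgeR adjusted p = 0.417).

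Of the 5 transcription factor genes, 3 had positive and 2 negative fold changes, and the groups overlapped for each. Stat2 averaged 29.0 ± 7.31 CPM in Paupar KD and 31.8 ± 1.33 CPM in control KD, and Irf9, its DNA-binding partner, 9.99 ± 1.51 CPM in Paupar KD and 11.3 ± 0.76 CPM in control KD. Irf1, which acts downstream of interferon gamma in particular, averaged 41.9 ± 10.9 CPM in Paupar KD and 40.3 ± 1.88 CPM in control KD. Irf3, which lies ready in unstimulated cells, averaged 31.1 ± 6.65 CPM in Paupar KD and 27.5 ± 1.75 CPM in control KD. Irf7, itself an interferon-stimulated gene, averaged 7.13 ± 2.34 CPM in Paupar KD and 4.996 ± 0.78 CPM in control KD (edgeR adjusted p = 0.322). For each of these 5 genes Paupar KD replicate 1 was the highest and replicate 3 the lowest of the Paupar KD libraries, for example 9.61 and 4.98 CPM for Irf7 and 54.1 and 32.9 CPM for Irf1.

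Among the RNA sensors, Ddx58, which encodes RIG-I, averaged 9.72 ± 1.31 CPM in Paupar KD and 8.24 ± 0.50 CPM in control KD. Ifih1, which encodes the sensor MDA5, was at 3.54, 2.40 and 1.03 CPM in Paupar KD replicates 1, 2 and 3 and at 1.15 to 1.62 CPM in control KD. Those groups overlapped, since replicate 3 lay below and replicates 1 and 2 above every control. Dhx58, which encodes the regulator LGP2, averaged 3.02 ± 1.06 CPM in Paupar KD and 3.24 ± 0.63 CPM in control KD. Mavs, the adaptor shared by these sensors, was at 14.9, 13.2 and 14.5 CPM in Paupar KD replicates 1, 2 and 3, against 10.6, 11.8 and 12.6 CPM in control KD replicates 1, 2 and 3. All 3 Paupar KD values of Mavs were above the controls, by a difference that did not pass (log2 fold change 0.28 ± 0.12 SE, edgeR adjusted p = 0.273).

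The genes that act on double-stranded RNA or degrade RNA included the largest fold change of the 31 members. Oasl2, an oligoadenylate synthetase-like gene on chromosome 5 (mm9, 115346943 to 115362243), was at 13.3, 9.49 and 4.25 CPM in Paupar KD replicates 1, 2 and 3, against 3.94, 4.09 and 4.15 CPM in control KD replicates 1, 2 and 3. The 3 controls were nearly equal, replicates 1 and 2 of Paupar KD stood well above them, and replicate 3 was at the control level. The means differed 2.22-fold, 9.02 ± 4.56 CPM in Paupar KD and 4.06 ± 0.11 CPM in control KD (log2 fold change 1.14 ± 0.36 SE, edgeR adjusted p = 0.199). A larger fold change in size was found for 0.652% of all tested genes. Oasl2 had a log2 fold change of 0.74 when Paupar KD replicate 1 was left out and of 1.48 when replicate 3 was left out.

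Oasl1, the neighbouring paralog, was at 16.0, 15.4 and 11.6 CPM in Paupar KD replicates 1, 2 and 3, against 12.4, 10.7 and 10.6 CPM in control KD replicates 1, 2 and 3. Here too replicates 1 and 2 were above all controls, and replicate 3 lay among them (log2 fold change 0.35 ± 0.15 SE, edgeR adjusted p = 0.281). Isg20, an exonuclease gene on chromosome 7 (mm9, 86058310 to 86065248), was at 40.2, 38.2 and 33.9 CPM in Paupar KD replicates 1, 2 and 3, against 28.8, 30.2 and 29.7 CPM in control KD replicates 1, 2 and 3. Every Paupar KD value of Isg20 was above every control, 1.27-fold on average (log2 fold change 0.34 ± 0.10 SE, edgeR adjusted p = 0.168). Eif2ak2, which encodes the kinase PKR that stops translation on binding double-stranded RNA, averaged 36.9 ± 4.13 CPM in Paupar KD and 36.2 ± 1.20 CPM in control KD. Adar, which edits adenosines in double-stranded RNA, averaged 65.1 ± 5.16 CPM in Paupar KD and 66.6 ± 2.72 CPM in control KD. Oas1a and Oas2, which encode enzymes that make oligoadenylates on binding double-stranded RNA, were low: Oas1a averaged 2.14 ± 0.40 CPM in Paupar KD and 1.91 ± 0.15 CPM in control KD. Oas2 averaged 1.61 ± 0.41 CPM in Paupar KD and 2.23 ± 0.36 CPM in control KD, with overlapping groups (edgeR adjusted p = 0.356).

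The IFIT genes encode proteins that bind viral RNA, and the 3 genes lie in the same region of chromosome 19. Ifit1 (mm9, 34715361 to 34724499) was at 3.48, 3.28 and 2.40 CPM in Paupar KD replicates 1, 2 and 3, against 1.86, 2.13 and 1.78 CPM in control KD replicates 1, 2 and 3. All Paupar KD values lay above the controls, 1.59-fold on average, on 56 to 67 counts per library in Paupar KD and 42 to 51 in control KD (log2 fold change 0.66 ± 0.21 SE, edgeR adjusted p = 0.209). Ifit2 averaged 22.2 ± 3.52 CPM in Paupar KD and 19.6 ± 1.55 CPM in control KD, and Ifit3 0.60 ± 0.06 CPM in Paupar KD and 0.58 ± 0.06 CPM in control KD. Both had overlapping groups, with log2 fold changes of 0.19 ± 0.14 SE for Ifit2 and 0.07 ± 0.30 SE for Ifit3. Ifit3 rested on 9 to 15 counts per library in Paupar KD and 13 to 15 in control KD. The difference between the 3 genes was not tested.

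Mx1 had the smallest p of the 31 members. The gene encodes a dynamin-like GTPase that blocks influenza virus, and many laboratory mouse strains carry a defective allele. Mx1 (chromosome 16, mm9, 97668642 to 97684514) was at 63.6, 74.5 and 58.8 CPM in Paupar KD replicates 1, 2 and 3, against 98.6, 107 and 99.0 CPM in control KD replicates 1, 2 and 3. All 3 Paupar KD libraries lay well below the controls, and the mean was 0.646 of the control KD mean (65.7 ± 8.02 CPM in Paupar KD and 102 ± 4.98 CPM in control KD, log2 fold change -0.63 ± 0.11 SE, edgeR adjusted p = 0.0771). A larger fold change in size was seen in 5.16% of all tested genes. Mx2, its neighbour, averaged 1.70 ± 0.58 CPM in Paupar KD and 1.74 ± 0.63 CPM in control KD.

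Usp18, a protease that removes ISG15 from proteins and also restrains the receptor IFNAR, was at 40.2, 33.5 and 43.0 CPM in Paupar KD replicates 1, 2 and 3, against 48.9, 54.1 and 49.7 CPM in control KD replicates 1, 2 and 3. Each Paupar KD value was below each control, at 0.764 of the control KD mean (log2 fold change -0.39 ± 0.11 SE, edgeR adjusted p = 0.173). The summed immune markers were also lower in Paupar KD, as given above. Of the 3 tested immune markers, the macrophage marker Cd68 was at 1.10 ± 0.35 CPM in Paupar KD and 2.46 ± 0.02 CPM in control KD, and Cd74, a chaperone of class II antigen presentation, at 0.31 ± 0.12 CPM in Paupar KD and 0.58 ± 0.06 CPM in control KD. Lyz2, a lysozyme gene of macrophages, lay the other way, at 0.75 ± 0.14 CPM in Paupar KD and 0.60 ± 0.14 CPM in control KD, with overlapping groups. Their part in the values of Mx1 and Usp18 was not tested.

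For the other antiviral effectors the groups overlapped. Rsad2, which encodes viperin, averaged 118 ± 16.4 CPM in Paupar KD and 121 ± 6.82 CPM in control KD. Isg15, a ubiquitin-like modifier, averaged 0.71 ± 0.28 CPM in Paupar KD and 0.57 ± 0.12 CPM in control KD, on 10 to 21 counts in Paupar KD and 11 to 20 in control KD. Bst2, the tetherin gene, averaged 1.17 ± 0.56 CPM in Paupar KD and 1.09 ± 0.14 CPM in control KD, the chemokine gene Cxcl10 0.94 ± 0.09 CPM in Paupar KD and 0.76 ± 0.13 CPM in control KD, and Parp14, an ADP-ribosyltransferase gene, 3.43 ± 1.34 CPM in Paupar KD and 3.85 ± 0.08 CPM in control KD. Ifi44 was too low to test, with 0, 1 and 1 counts in Paupar KD and 0 in every control KD library, where a count of 0 allows 0.105 to 0.133 CPM.

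**Figure D2:**
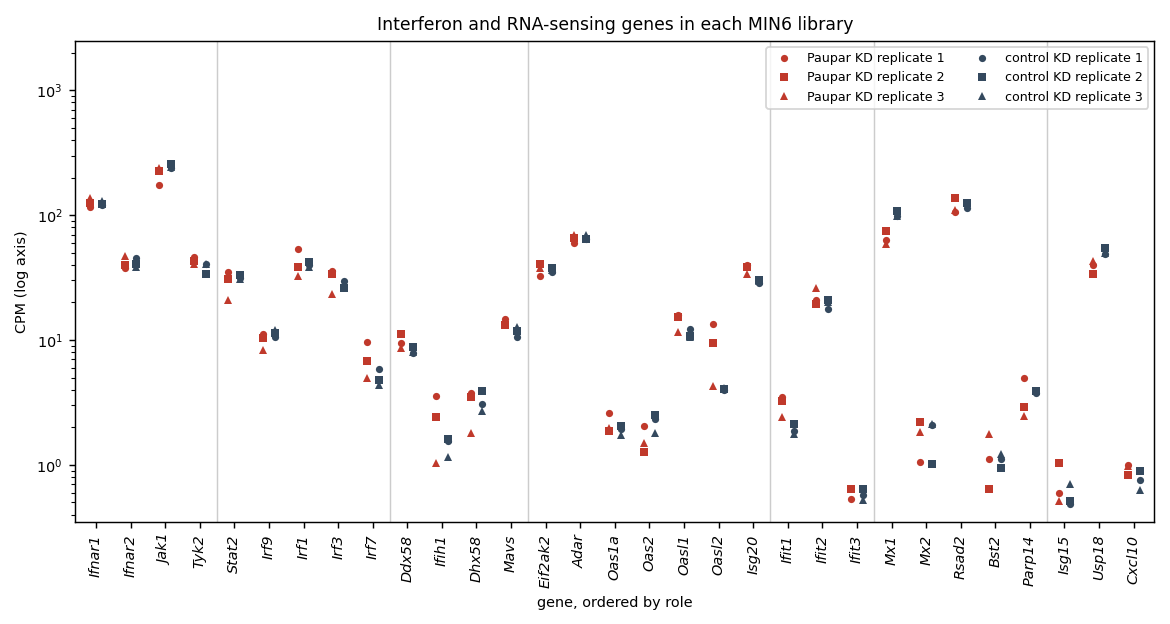
CPM of each of the 31 tested genes in each library on a log axis, Paupar KD left of control KD, with symbols for replicates 1 to 3. Mx1 and Usp18 sit lower in all 3 Paupar KD libraries than in the controls, while Oasl2 spreads between 4.25 and 13.3 CPM in Paupar KD over controls at 3.94 to 4.15 CPM.

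Levels were compared between genes after dividing CPM by the kilobases of annotated exon. In Paupar KD the order was Jak1 at 29.6 ± 4.79, Rsad2 at 27.3 ± 3.78, Usp18 at 22.0 ± 2.77, Ifnar1 at 21.5 ± 1.76, Isg20 at 20.5 ± 1.78 and Mx1 at 18.0 ± 2.20 CPM per kb. Jak1 and Rsad2 did not differ beyond their spread, nor did Rsad2 and Usp18, nor did Usp18, Ifnar1, Isg20 and Mx1. In control KD Jak1 again led at 34.2 ± 1.35 CPM per kb, then Usp18 at 28.8 ± 1.58, Rsad2 at 28.1 ± 1.57 and Mx1 at 27.9 ± 1.37 CPM per kb; the last 3 of these did not differ beyond their spread. Ifnar1 followed at 21.3 ± 0.90 and Isg20 at 16.2 ± 0.40 CPM per kb. Other interferon-stimulated genes were far lower in both groups: Isg15, Ifit3, Cxcl10, Mx2, Oas2 and Parp14 were each under 1 CPM per kb. In control KD 9 of the 31 tested members lay above the median of all genes, 9.30 CPM per kb.

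**Figure D3:**
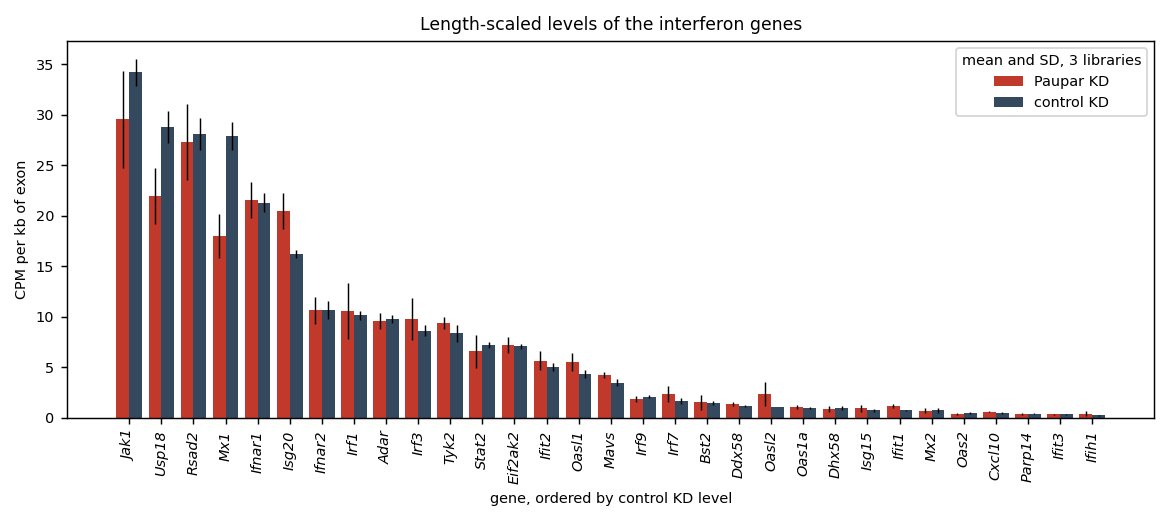
Mean CPM per kb of exon for the 31 tested genes, ordered by the control KD level, with Paupar KD left of control KD and the SD over 3 libraries as error bars. Jak1, Usp18, Rsad2, Mx1, Ifnar1 and Isg20 stand at 16.2 CPM per kb or more in both groups, and the bars of Mx1 and Usp18 differ most between groups.

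The differences were unevenly spread over the Paupar KD libraries. The median log2 difference from the control KD mean over the 31 members was 0.15, 0.12 and 0.05 in Paupar KD replicates 1, 2 and 3, beside 0.00 to 0.01 over all genes. Paupar KD replicate 1 was the highest of the 6 libraries for 14 of 31 members, 45.2%, beside 33.2% of all genes. Paupar KD replicate 3 was the lowest for 8 members, 25.8%, beside 18.8% of all genes. For the 5 transcription factor genes the median difference was 0.38, -0.06 and -0.29 in replicates 1, 2 and 3, and for the 7 double-stranded RNA and RNA-degrading genes 0.43, 0.17 and 0.05. The spread between libraries was larger in Paupar KD for 27 of 31 members, 87.1%, beside 84.6% of all genes. The beta cell marker sum was also highest in Paupar KD replicate 1; its part in these values was not tested.

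**Figure D4:**
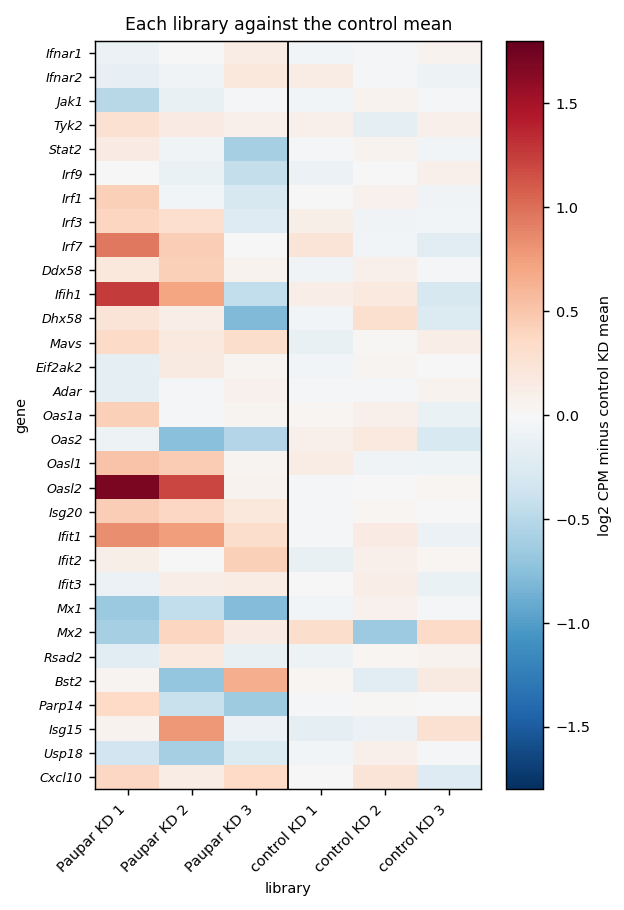
Log2 CPM of each of the 31 tested genes in each library minus the mean of the 3 control KD libraries, with the Paupar KD libraries left of the line. Red is higher and blue lower; Oasl2, Ifih1, Irf7 and Ifit1 are darkest red in Paupar KD replicate 1, and Mx1 and Usp18 are blue in all 3 Paupar KD libraries.

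Other ways of testing gave calls among these genes. Mx1 was called lower in 5 of 16 alternatives, with adjusted p from 1.14e-04 to 0.493 and a log2 fold change from -0.74 to -0.53 over the 16. It was called by DESeq2 (adjusted p = 1.14e-04), without a low-count filter (edgeR adjusted p = 0.0411), by limma-voom with quality weights (adjusted p = 0.00319) and in edgeR without Paupar KD replicate 1 (adjusted p = 0.0320) or replicate 3 (adjusted p = 0.0203). The same directions were called for 1.82%, 0.138%, 7.29%, 0.972% and 5.67% of all genes in those fits. At an adjusted p under 0.1, Mx1 was called with all 6 libraries, beside 0.291% of genes called lower. Oasl2 was called higher by DESeq2 (adjusted p = 0.0389, a direction called for 2.15% of genes), and its adjusted p ran from 0.00529 to 0.578 over the alternatives.

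Without Paupar KD replicate 3, edgeR called Ifih1, Ifit1, Isg20, Oasl1 and Oasl2 higher and Mx1 and Usp18 lower, 5 and 2 members, in a fit that called 4.65% of all genes higher and 5.67% lower. Limma-voom with quality weights called Ifit1, Isg20 and Oasl2 higher and Mx1 and Usp18 lower, beside 5.71% and 7.29% of all genes. Without Paupar KD replicate 2, or without any one control library, edgeR called 0 of all genes in either direction, and so no member. In those fits 2 to 4 members were higher and 2 lower at an unadjusted p under 0.05. That threshold was passed by 8.11% of all genes higher and 7.55% lower without Paupar KD replicate 2, by 5.73% and 4.3% without control KD replicate 1, by 4.29% and 4.31% without control KD replicate 2, and by 4.89% and 4.21% without control KD replicate 3. Tyk2, Mavs, Oasl1, Oasl2, Isg20, Ifit1, Mx1 and Usp18 each kept the sign of their fold change in all 16 alternatives. These genes were picked by p or by groups apart in the same libraries that the alternatives refit. Their kept signs are therefore no independent support.

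Promoter letters were read from RefSeq windows of 300 bases, 250 before to 50 after each annotated start, in GRCm38.p6, a later build than the mm9 of the counts. The windows covered 26 of the 32 genes; Dhx58, Oas2, Mx1, Mx2, Parp14 and Usp18 had no entry. The ISRE letters GAAANNGAAA, read on both strands, were found in the windows of 11 of 26 genes, 42.3%, beside 3.99% of all 27025 genes with a window. The letters TTCNNNGAA of the gamma-activated site, to which STAT dimers bind and which read the same on both strands, were found for 9 of 26 genes, 34.6%, beside 9.55% of all genes. In Bst2 the 2 motifs overlap by their letters, and in Isg15, Bst2 and Oas1a neighbouring ISRE matches overlap each other. A match is a description of letters only, and binding was not measured.

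The stretches below are the 150 bases before the start, written in the direction of transcription with ISRE letters in capitals. Ifit1 and Ifit3 are shown because both carry the same letters at different levels, though Ifit3 rested on at most 15 counts per library. Isg15 and Rsad2 are shown as a low and an abundant gene with matches. Oasl2 and Isg20 are shown because their values were higher in all Paupar KD libraries and no ISRE letters lie in the stretch. For Oasl2 the margin was narrow in Paupar KD replicate 3, at 4.25 CPM beside 4.15 CPM in the highest control KD library. Ifit1, with ISRE letters, was also higher in all Paupar KD libraries, and Mx1 and Usp18, both lower, had no window. Whether the letters go with the fold changes was not tested.
Ifit1, chr19:34640739-34640888, plus strand: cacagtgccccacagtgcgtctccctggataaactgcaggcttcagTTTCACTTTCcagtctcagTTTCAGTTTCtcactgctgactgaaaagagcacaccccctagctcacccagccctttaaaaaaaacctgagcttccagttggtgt
Ifit3, chr19:34583379-34583528, plus strand: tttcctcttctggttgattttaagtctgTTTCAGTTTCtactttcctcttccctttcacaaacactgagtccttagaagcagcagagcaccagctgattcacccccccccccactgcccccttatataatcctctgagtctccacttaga
Isg15, chr4:156200819-156200968, minus strand: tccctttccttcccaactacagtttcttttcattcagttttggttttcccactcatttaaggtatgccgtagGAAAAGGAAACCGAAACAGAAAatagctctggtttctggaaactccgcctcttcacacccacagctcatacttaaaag
Rsad2, chr12:26456453-26456602, minus strand: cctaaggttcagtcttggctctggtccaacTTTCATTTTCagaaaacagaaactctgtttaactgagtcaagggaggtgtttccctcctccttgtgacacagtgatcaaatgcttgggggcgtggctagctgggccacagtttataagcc
Oasl2, chr5:114896784-114896933, plus strand: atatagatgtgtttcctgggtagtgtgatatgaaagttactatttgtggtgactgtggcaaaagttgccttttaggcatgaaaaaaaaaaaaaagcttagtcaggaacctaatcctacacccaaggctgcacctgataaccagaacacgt
Isg20, chr7:78913274-78913423, plus strand: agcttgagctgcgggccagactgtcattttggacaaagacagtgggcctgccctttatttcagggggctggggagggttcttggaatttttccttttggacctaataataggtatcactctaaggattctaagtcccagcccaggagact

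Ifit1 has 2 matches here, starting 104 and 85 bases before its start, and Ifit3 has 1 at 122 bases and another at 156 bases, before the stretch shown. Isg15 has 3 overlapping matches from 78 to 66 bases before the start, and Rsad2 has 1 at 120 bases. These 4 genes ran from 0.33 CPM per kb for Ifit3 to 28.1 CPM per kb for Rsad2 in control KD. Isg20 has 3 annotated windows, of which the first listed is printed; none of the 3 holds ISRE letters, and the first holds the TTCNNNGAA letters at 73 bases before the start.

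Further genes of the pathway were read from 6 lists, 116 symbols in all, of which 111 were in the tables and 77 were tested. None passed over all genes in edgeR; 12 were higher and 5 lower at an unadjusted p under 0.05, 22.1% of the 77, beside the 17.7% of all genes. DESeq2 called 1 higher, Ifngr2, and 1 lower, Irf2, beside 2.15% of all genes higher and 1.82% lower. Without Paupar KD replicate 3, edgeR called 7 higher (Ifngr2, Socs3, Myd88, Ifi27l1, Gbp7, Tapbp and Psmb10) and 1 lower (Stam2), beside 4.65% and 5.67% of all genes. Limma-voom with quality weights called 5 higher and 5 lower, beside 5.71% and 7.29% of all genes. None of the 10 interferon ligand genes on these lists could be tested: they had 0 counts in every Paupar KD library, and 1 count in all, of Ifnb1 in replicate 2, among the control KD libraries.

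Of 13 tested genes of receptor signalling and feedback, 3 were higher and 2 lower at an unadjusted p under 0.05, a threshold that 9.63% of all genes passed as higher and 8.11% as lower, here and for the lists that follow. Ifngr2, a chain of the interferon gamma receptor, averaged 35.7 ± 0.71 CPM in Paupar KD and 27.3 ± 1.33 CPM in control KD (edgeR adjusted p = 0.133), with no overlap. Irf2, which competes with IRF1 for DNA, averaged 18.6 ± 0.87 CPM in Paupar KD and 24.4 ± 1.52 CPM in control KD (edgeR adjusted p = 0.149), also with no overlap. Socs3, a feedback inhibitor of JAK kinases, averaged 21.9 ± 4.84 CPM in Paupar KD and 15.1 ± 0.96 CPM in control KD, and Il10rb, a receptor chain for interferon lambda and interleukin-10 whose exons touch those of Ifnar2, 27.7 ± 0.60 CPM in Paupar KD and 23.4 ± 0.45 CPM in control KD.

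Among 13 tested sensing adaptors and kinases, 2 were higher and 0 lower at that threshold. Myd88, the adaptor of Toll-like receptors, averaged 12.8 ± 2.26 CPM in Paupar KD and 9.69 ± 1.06 CPM in control KD, and Tradd 17.9 ± 1.63 CPM in Paupar KD and 14.6 ± 1.37 CPM in control KD. Ikbke, a kinase that activates IRF3, averaged 14.0 ± 0.79 CPM in Paupar KD and 16.0 ± 0.80 CPM in control KD, and Traf3, which links adaptors to such kinases, 60.8 ± 4.63 CPM in Paupar KD and 54.7 ± 1.69 CPM in control KD. E330016A19Rik, which encodes the DNA sensor cGAS, was tested and averaged 8.51 ± 0.86 CPM in Paupar KD and 7.88 ± 1.09 CPM in control KD, with overlapping groups. Tmem173, which encodes the DNA-sensing adaptor STING, was too low to test at 5 to 11 counts in Paupar KD and 2 to 9 in control KD. The RNA-sensing receptor Tlr3 was too low as well, at 7 to 12 counts in Paupar KD and 3 to 10 in control KD. The nucleic acid sensors Aim2 and Zbp1 were at 0 counts in every library.

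Of 12 genes of nucleic acid clearance, 1 was higher and 1 lower at an unadjusted p under 0.05. Pnpt1, a mitochondrial exoribonuclease gene, averaged 88.8 ± 13.5 CPM in Paupar KD and 112 ± 5.52 CPM in control KD, and Rnaseh2c, a subunit of RNase H2, 47.4 ± 12.5 CPM in Paupar KD and 33.7 ± 5.25 CPM in control KD. Samhd1, which breaks down deoxynucleotides, averaged 63.6 ± 5.96 CPM in Paupar KD and 56.4 ± 2.89 CPM in control KD.

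Of 26 other interferon-stimulated genes, 5 were higher and 2 lower at that threshold, with positive fold changes for 20 and a median of 0.19, beside 51.0% positive and a median of 0.01 over all genes. Shisa5 averaged 68.0 ± 8.16 CPM in Paupar KD and 53.1 ± 1.99 CPM in control KD, Samd9l 20.9 ± 1.496 CPM in Paupar KD and 26.8 ± 2.82 CPM in control KD, Oas1g 1.53 ± 0.31 CPM in Paupar KD and 0.94 ± 0.12 CPM in control KD, and Ifi27l1 96.3 ± 18.0 CPM in Paupar KD and 75.6 ± 3.37 CPM in control KD. The groups were apart for these 4 genes, and edgeR adjusted p ran from 0.178 to 0.252. Of 13 antigen presentation genes 11 had positive fold changes, with a median of 0.18 beside the same values over all genes, and 1 was higher at an unadjusted p under 0.05. That gene was Tapbp, which encodes tapasin, a chaperone of peptide loading, at 368, 273 and 225 CPM in Paupar KD replicates 1, 2 and 3 and 211 to 222 CPM in control KD. H2-D1, a class I heavy chain gene, averaged 212 ± 12.7 CPM in Paupar KD and 187 ± 10.1 CPM in control KD, Tap2, a peptide transporter gene, 12.8 ± 1.29 CPM in Paupar KD and 10.7 ± 0.55 CPM in control KD, and Psmb10, an immunoproteasome subunit gene, 9.07 ± 3.32 CPM in Paupar KD and 6.69 ± 0.83 CPM in control KD. For this list the median difference from the control mean was 0.32, 0.16 and -0.07 in Paupar KD replicates 1, 2 and 3.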

How the data were processed

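Messenger RNA of 6 MIN6 libraries was measured by sequencing, with total RNA extracted on Qiagen columns and TruSeq libraries, per the labels' protocols. The authors deposited a raw read count per gene symbol for each library. CASAVA 1.8.2, HISAT2, HTSeq, DESeq2 and build mm9 are named in the submitters' processing notes. The sources used here do not give their roles, the annotation or the strand setting. Exons of 10 of the 32 genes overlap those of another gene in GENCODE M1, among them Irf7, Irf3, Irf1, Irf9, Jak1, Ifnar2 and Oasl1, and near-identical copies such as Oas1a and Oas1g, or H2-D1 and H2-K1, may share reads, so these levels are uncertain.

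The test was run in edgeR 4.0.16 (R 4.3.3): filterByExpr with a minimum count of 10, TMM scaling, the robust quasi-likelihood test of Paupar KD against control KD, and Benjamini-Hochberg adjustment over all 13039 tested genes at 0.05. CPM uses TMM-scaled totals, and per-library log2 values add a prior count of 2. An SE is the log2 fold change divided by the square root of F. A count of 0 allows up to 3 counts, which covers counting error only. Alternatives used limma 3.58.1 and DESeq2 1.42.0. The fit was tested on simulated data. Those data gave both groups the same spread, so the larger spread of Paupar KD was not covered. No 2 libraries of a group agreed within sampling noise (chi-square per gene of 3.46 or more, where 1 is expected of sampling alone). Exon lengths and positions are from GENCODE M1 on NCBIM37, the assembly called mm9.

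The members and lists were chosen with earlier results of these data known. Members are given by library where an unadjusted p was under 0.05 or the groups did not overlap; from each further list the 4 genes with the smallest p are named, except 1 gene that is not reported here. The library values of Ifih1 and Tapbp, and E330016A19Rik, Tmem173, Tlr3, Aim2, Zbp1, Gbp7, Stam2 and the marker genes given singly, were chosen after values were seen.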

Additional observations from a re-analysis of the deposited data

How the results depend on the processing

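The test of all genes gave 5 genes higher and 1 lower, and 0 members in either direction. Over all genes, limma-voom with quality weights called 745 higher and 950 lower, DESeq2 275 and 233, and edgeR without a low-count filter 36 and 24. Requiring a mean CPM of 1 left 2 and 0, and upper-quartile factors left 3 and 0. A threshold of 0.1 for the adjusted p gave 55 and 38, and a threshold of 0.01 gave 1 and 0. For all of these the cause was not tested. Of the members, DESeq2 called 1 higher and 1 lower, limma-voom with quality weights 3 and 2, edgeR without a low-count filter 0 and 1, and edgeR at a threshold of 0.1 likewise 0 and 1. Leaving out 1 library gave 0 to 611 genes higher and 0 to 745 lower, and 0 to 5 members higher and 0 to 2 lower. The counts without Paupar KD replicate 1 were 123 and 128 genes and 0 and 1 members, and without Paupar KD replicate 3 they were 611 and 745 genes and 5 and 2 members. Without Paupar KD replicate 2 or any one control they were 0. With a replicate block edgeR called 1 gene higher and 0 lower, and 0 members. Deviations of libraries that share a number correlated at 0.07, -0.01 and 0.01, so the numbers were not taken to pair the libraries. RLE factors, library totals alone, limma-voom and no robust estimation kept 5 and 1 genes, the same 6, and 0 members. The median log2 fold change of the members ran from 0.02 to 0.11. Depth limits Ifit3, Isg15, Cxcl10 and Bst2, which had at most 41 counts in any library.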
